A study of Bos taurus with 57 samples.

Results

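ENSBTAG00000018948 is 1 of the 24616 Ensembl genes counted in the tissues of Holstein Friesian bull calves, and it was chosen by its read count in the anterior pituitary, which was higher on the low than on the high plane of nutrition. Bull calves were reared from the first weeks of life on either plane and killed at 126 days of age, and RNA from the arcuate nucleus of the hypothalamus, the anterior pituitary and the parenchyma of the testes was sequenced. The labels give overall growth rates of 1.08 kg per day on the high plane and 0.5 kg per day on the low plane, while the design text gives 1.2 kg per day for the high plane. All calves were males of 1 breed, each library came from 1 calf, and both groups received milk replacer and concentrate in different amounts, so the diets differed in quantity of both feeds at once. There were 9 high and 10 low plane libraries of the anterior pituitary, 10 and 10 of the arcuate nucleus, and 10 and 8 of the testes. The labels do not tie a library to a calf, so tissues of the same calf could not be paired.

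The arcuate nucleus lies at the base of the hypothalamus and holds neurons that sense the energy state of the body and act on the release of gonadotropin releasing hormone. The anterior pituitary answers that hormone with LH and FSH, and also secretes growth hormone, prolactin, thyrotropin and ACTH. LH acts on Leydig cells of the testes, which make testosterone, and FSH acts on Sertoli cells, which nurse the developing germ cells. The count files list Ensembl identifiers only, and the gene table at hand, of the RefSeq assembly ARS-UCD2.0, matched 0 of the 24616 identifiers. The product of ENSBTAG00000018948, its position and its sequence are therefore not given here, and the identity of each dissected tissue could not be checked against marker genes.

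Reads assigned to genes numbered 898979 to 32009433 per library, with the lowest in the high plane arcuate nucleus library C22. On the first dimension of a multidimensional scaling plot, 5 anterior pituitary, 2 arcuate nucleus and 6 testes libraries lay apart from the rest of their tissue. Of those in the testes 5 were from the low plane and 1 from the high plane, whereas those of the anterior pituitary were 3 from the high and 2 from the low plane, and both of the arcuate nucleus were from the low plane. The fits of ENSBTAG00000018948 are given with and without these libraries. The testes library labelled A48 carries the name B48 inside its data. Its log2 CPM over 16476 genes correlated at a median r of 0.979 with the other 17 testes libraries and at a median r of 0.763 with the 19 anterior pituitary libraries.

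In the anterior pituitary the gene was lower on the high plane than on the low plane. Its level is given in CPM, read counts relative to library size after TMM scaling, which sets the libraries of a tissue to a common scale. High plane libraries held 5.19 to 27.5 CPM with a median of 15.4, from 82 to 452 reads on the gene per library. Low plane libraries held 40.4 to 85.5 CPM with a median of 67.8, from 449 to 1849 reads. The highest high plane library therefore lay below the lowest low plane library, and the groups did not overlap. Mean levels were 15.3 ± 7.02 CPM (SD, n = 9) and 65.8 ± 12.997 CPM (SD, n = 10), a 4.29-fold ratio of means. The log2 fold change of the low relative to the high plane was 2.10 with a standard error of 0.25. That standard error was derived from the F statistic of the fit. These values chose the gene, and they are given as a description with no p-value. For the same reason nothing is read from the 10 of 14411 genes (0.0694%) that passed an FDR of 0.05 with higher counts on the low plane (0.493% with lower counts), or from the 6 genes (0.0416%) whose low plane libraries all lay above the high plane ones (0.16% all below). In tissue homogenates, more cells of a type and more RNA per cell cannot be told apart.

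**Figure D1:**
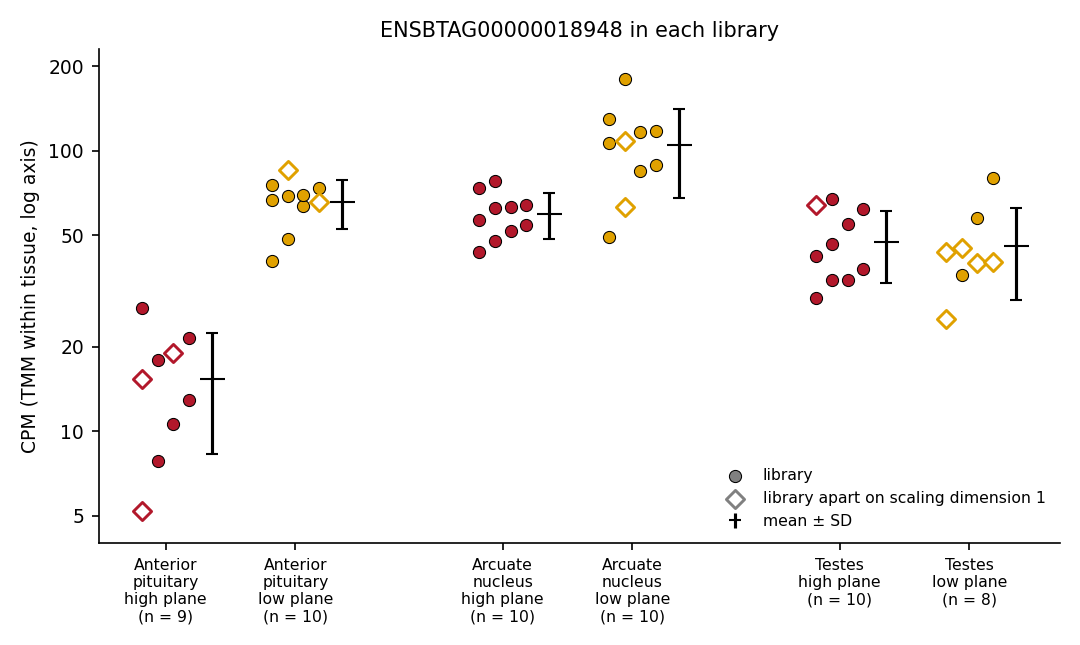
Level of ENSBTAG00000018948 in each of the 57 libraries, in CPM on a log axis, by tissue and plane of nutrition. Circles are libraries, open diamonds are libraries that lay apart on the first scaling dimension, and crosses with bars are the mean and SD. The 9 high plane anterior pituitary libraries lie between 5.19 and 27.5 CPM, below all 10 low plane libraries of that tissue, while the diets overlap in the arcuate nucleus and testes.

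Relative to the mean, levels were more spread out on the high plane, a difference that was not tested. High plane anterior pituitary libraries differed 5.30-fold from lowest to highest, with a coefficient of variation of 45.8%, and low plane libraries differed 2.12-fold, with 19.7%. Counting error was much smaller than either spread, with a median of 7.39% on the high and 2.83% on the low plane. Library A51 held the lowest level, 5.19 CPM from 82 reads, and A11 the highest of the high plane, 27.5 CPM from 452 reads. The biological coefficient of variation that edgeR estimated for the gene was 0.382, against 0.500 for genes of like abundance by the fitted trend. The value for the gene lay below the trend, and 44.8% of the genes tested had a lower value.

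Among the 5 anterior pituitary libraries that lay apart the gene was at 5.19 to 19.1 CPM in 3 high plane libraries and at 65.8 to 85.5 CPM in 2 low plane libraries. Among the others it was at 7.85 to 27.5 CPM in 6 high plane libraries and at 40.4 to 75.7 CPM in 8 low plane libraries. Without the 5 libraries the log2 fold change was 1.95 (SE 0.24), which describes the same counts that chose the gene. Within diets the log2 CPM of the gene and the position on that dimension correlated at 0.21 on the high and -0.33 on the low plane. Its correlation with the log2 total count was -0.25 and 0.33 (9 and 10 libraries).

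Whether the gene also differed between the diets in the arcuate nucleus was tested, since the libraries of that tissue had no part in its choice. The tissues were taken from the same group of calves, however, and the gene was chosen with earlier results of these data known. The tests in the arcuate nucleus and testes are therefore not tests in independent animals. High plane libraries held 43.6 to 77.9 CPM with a median of 59.6, and low plane libraries 49.2 to 180 CPM with a median of 107. The groups overlapped, with 8 of 10 low plane libraries above the highest high plane library, and the low plane library was the higher in 89% of the 100 pairs of a low and a high plane library. The 2 low plane libraries inside the high plane range were C8, at 49.2 CPM, and C6, at 63.3 CPM. C6 was among the libraries that lay apart. Mean levels were 59.5 ± 10.9 CPM (SD, n = 10) and 104.6 ± 36.6 CPM (SD, n = 10), a 1.76-fold ratio. The log2 fold change was 0.81 (SE 0.18), with a 95% interval from 0.43 to 1.19.

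Taken as a single gene, so large a difference of means was rare when diet labels were shuffled among the libraries (permutation test on log2 CPM, two-sided, 100000 resamples, P = 0.00124, or 0.00248 when adjusted over the arcuate nucleus and testes). The difference did not pass correction over all genes. In edgeR's quasi-likelihood test the gene had the second smallest p-value of 14757 genes (unadjusted P = 0.000217), and its FDR was 0.477. No gene passed in this tissue, with 0 of 14757 (0.0%) below an FDR of 0.05 by edgeR, 1464 below an unadjusted P of 0.05 and 1 below an FDR of 0.05 by DESeq2. Among the genes tested, 98.8% had a lower log2 fold change than ENSBTAG00000018948. Low plane library C13 held the highest level of all 57 libraries, and without it the log2 fold change was 0.68. Without the 2 libraries that lay apart it was 0.87. On the high plane the log2 CPM of the gene correlated at 0.74 with the first scaling dimension and at 0.60 with the log2 total count. On the low plane the values were 0.29 and 0.32 (10 libraries each). The high plane library C22 had the lowest total, 898979 reads, and the lowest level of its group, 43.6 CPM from 42 reads. It was also the lowest of its group on that dimension, and the high plane correlations were not computed without it. With the log2 total count as covariate the log2 fold change was 0.81, and with the library score, a mean over genes that follow that dimension in the other tissues, it was 0.88.

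**Figure D2:**
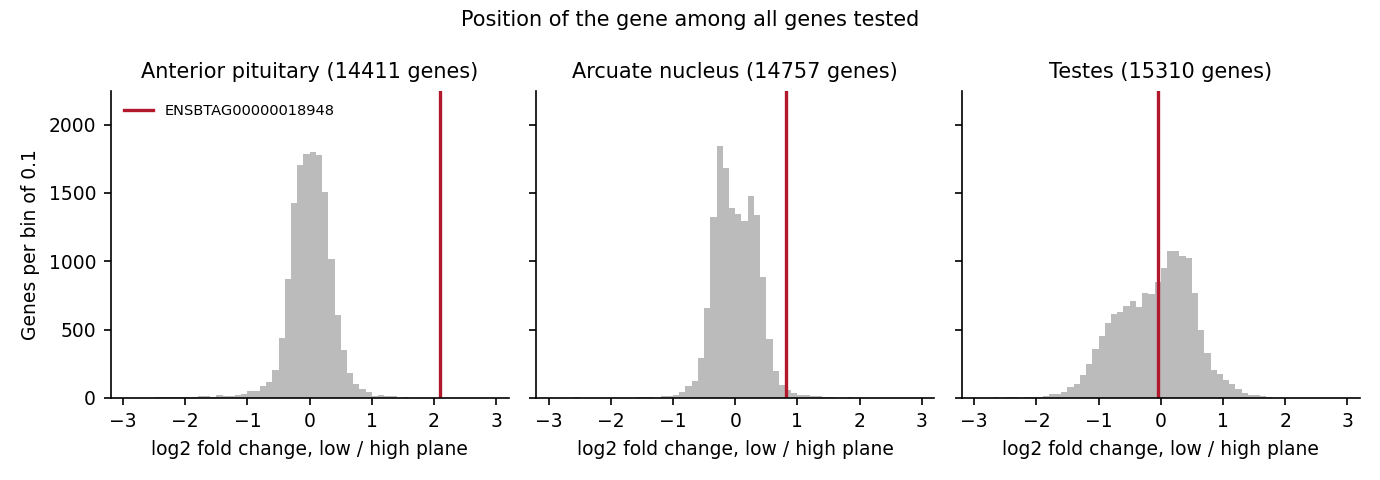
Log2 fold change of the low relative to the high plane for all genes tested in each tissue, as the number of genes per bin of 0.1, with ENSBTAG00000018948 as a vertical line and genes beyond the axis not drawn. The line lies at 2.10 in the anterior pituitary, at 0.81 in the arcuate nucleus, above 98.8% of genes, and at -0.05 in the testes, above 48.2% of genes.

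In the testes a diet difference was not detected. High plane libraries held 29.99 to 67.5 CPM with a median of 44.2, and low plane libraries 25.2 to 79.9 CPM with a median of 41.8. The 2 ranges lay almost wholly over each other, with the lowest and the highest library both from the low plane (B15 and B7). Means were 47.4 ± 13.8 CPM (SD, n = 10) and 45.9 ± 16.4 CPM (SD, n = 8). The log2 fold change was -0.05 (SE 0.21), with a 95% interval from -0.49 to 0.39 (edgeR, FDR = 0.868; exact permutation test on log2 CPM, two-sided, P = 0.761). In the same fit 1057 of 15310 genes (6.9%) passed, 727 (4.75%) with higher and 330 (2.16%) with lower counts on the low plane, and with library totals in place of TMM factors the split was 2025 higher and 311 lower. With the library score as covariate it turned over, to 271 higher and 680 lower. The libraries of the diets did not overlap for 0.0914% of genes that were higher and 0.118% that were lower on the low plane.

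Depth moved with the gene in the testes. Its log2 CPM correlated with the log2 total count at 0.56 on the high plane (n = 10) and 0.63 on the low plane (n = 8), as a description of these libraries. With the position on the first scaling dimension it ran opposite ways in the diets, at -0.36 on the high and 0.57 on the low plane. With the log2 total count as a covariate the log2 fold change was 0.26 (SE 0.21, FDR = 0.712 by edgeR). Without the 6 libraries that lay apart, which left 9 high and 3 low plane libraries, it was 0.34 (SE 0.25, FDR = 0.523 by edgeR). Its FDR over all alternatives ran from 0.523 to 0.955.

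**Figure D3:**
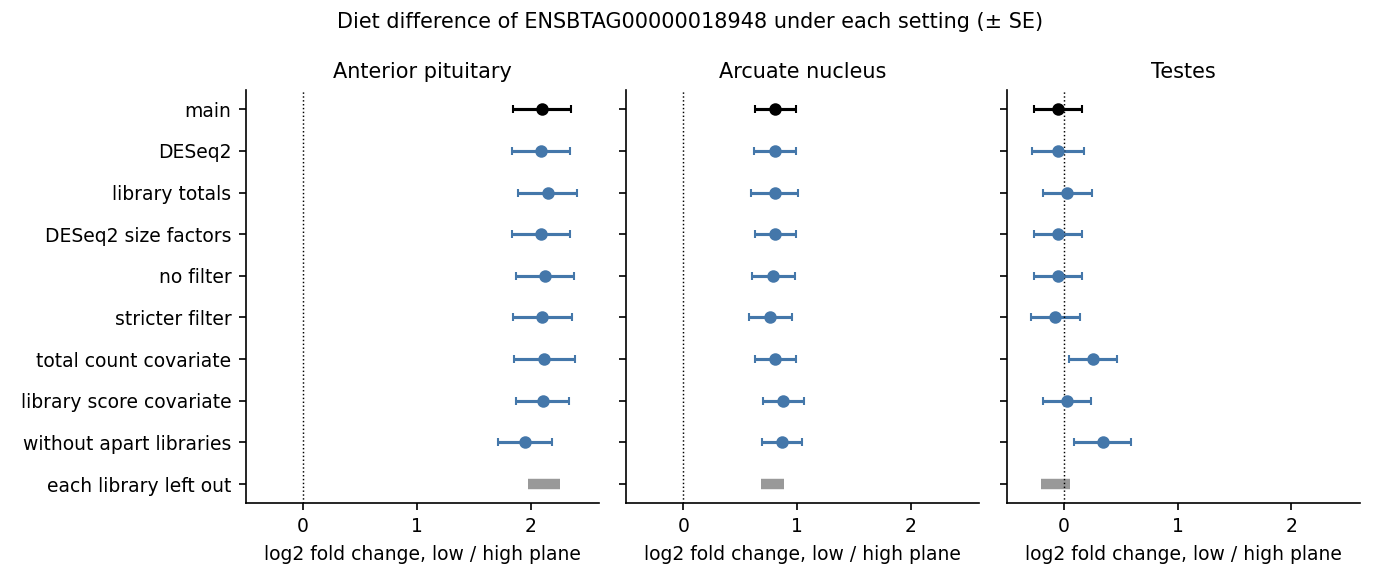
Log2 fold change of ENSBTAG00000018948, low relative to high plane, with its standard error, in each tissue under each setting of the analysis; the grey bar spans the fits that left out each library in turn. Values lie between 1.95 and 2.25 in the anterior pituitary and between 0.68 and 0.89 in the arcuate nucleus, and on both sides of 0 in the testes.

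The difference between tissues in the diet effect was tested for the arcuate nucleus against the testes, in 1 fit of the 38 libraries of these tissues. That fit treated all libraries as independent, because tissues of the same calf could not be paired. The diet effect was larger in the arcuate nucleus by 0.77 on the log2 scale (SE 0.28, 95% interval 0.20 to 1.35, unadjusted P = 0.00944 in edgeR's fit across genes). After correction over 16214 genes the FDR was 0.234. By edgeR 0 genes (0.0%) passed in this contrast, with 1747 below an unadjusted P of 0.05, and DESeq2 counted 211. Without the libraries that lay apart the difference was 0.48 (SE 0.33). The anterior pituitary was left out of the test because its libraries chose the gene. Side by side, the log2 fold changes were 2.10 for the anterior pituitary, 0.81 for the arcuate nucleus and -0.05 for the testes.

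For the order of the levels all 57 libraries were scaled together. The median was lowest in the high plane anterior pituitary, at 18.5 CPM, followed by the low plane testes at 37.5, the high plane testes at 41.9, the high plane arcuate nucleus at 56.7, the low plane anterior pituitary at 77.0 and the low plane arcuate nucleus at 104.6 CPM. Each neighbouring pair in this order overlapped. High plane anterior pituitary libraries reached up to 30.3 CPM and low plane testes libraries down to 24.2 CPM. The anterior pituitary thus held the lowest median of the 3 tissues on the high plane and the second highest of the 6 groups on the low plane.

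**Figure D4:**
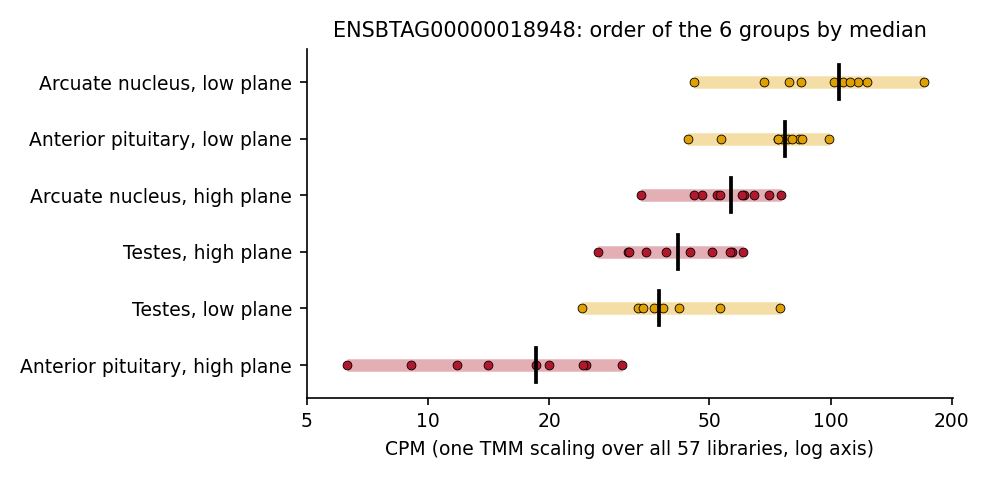
Level of ENSBTAG00000018948 in the 6 groups, ordered by median, in CPM on a log axis after 1 TMM scaling over all 57 libraries. Points are libraries, bands span the lowest to the highest library and vertical bars are medians, which run from 18.5 to 104.6 CPM.

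Between the tissues that did not choose the gene, its level was lower in the testes than in the arcuate nucleus on both planes. Both planes were compared in the same fit of 38 libraries, again treated as independent. The log2 difference was -0.49 (SE 0.19, FDR = 0.0255 by edgeR) on the high plane and -1.26 (SE 0.21, FDR = 2.04e-06 by edgeR) on the low plane. Such a difference was common, as 67.1% of the 16214 genes passed on the high plane (31.4% lower in the testes) and 68.1% on the low plane (32.4% lower). The high plane difference missed the threshold when library totals were used without TMM factors (-0.38, FDR = 0.104 by edgeR; range over all alternatives 0.00352 to 0.104). It also missed it without the arcuate nucleus library C53 (-0.44, FDR = 0.0511 by edgeR) or without the testes library B49 (-0.43, FDR = 0.0532).

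Genes whose level follows that of ENSBTAG00000018948 were looked for among the libraries of each diet separately, so that the diet difference itself could not produce a correlation. Likeness was measured as Pearson's r of log2 CPM within the 9 high plane and within the 10 low plane anterior pituitary libraries, and a gene was ranked by the weaker of both values. Few genes passed a cut of 0.7 in both diets. Of 13866 genes with a mean of at least 1 CPM, 1 reached 0.7 in both diets and 0 fell to -0.7 or below in both, while 36 reached 0.7 on the high plane and 20 on the low plane. Libraries share depth and the first scaling dimension, so these correlations are a description of these libraries. How many unrelated genes would reach 0.7 in so few libraries was not computed. The counts are therefore not read as a trait of the gene, nor the genes ranked first as more than the top of a list.

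The gene ranked first was ENSBTAG00000014486, with r = 0.81 on the high and 0.71 on the low plane, where Spearman's rho was 0.85 and 0.37. Its own counts were sparse, at 0.0633 to 2.70 CPM on the high plane and 0.546 to 1.495 CPM on the low plane, and its diets overlapped (log2 fold change -0.27, SE 0.36, FDR = 0.951 by edgeR). Both genes were lowest in library A51, without which r on the high plane was 0.58. In second place stood ENSBTAG00000010874, with r = 0.59 on the high and 0.75 on the low plane and 9.30 to 51.8 CPM on the high and 22.1 to 84.3 CPM on the low plane. It was also lowest in A51, and without that library r on the high plane was -0.05. Its likeness on the high plane thus rested on A51.

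The genes that ran most opposite to it were ENSBTAG00000011091 and ENSBTAG00000010344. ENSBTAG00000011091 had r = -0.74 on the high and -0.67 on the low plane, at a median of 4.56 CPM on the high and 4.20 CPM on the low plane. ENSBTAG00000010344 had r = -0.61 and -0.64, at a median of 1.01 and 1.11 CPM. Without A51 their r on the high plane was -0.44 and -0.43. With library totals in place of TMM factors their r on the low plane was -0.23 and -0.30. Neither they nor the 2 genes that followed passed an FDR of 0.05 for diet in the anterior pituitary, where 0.562% of all genes passed by edgeR.

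**Figure D5:**
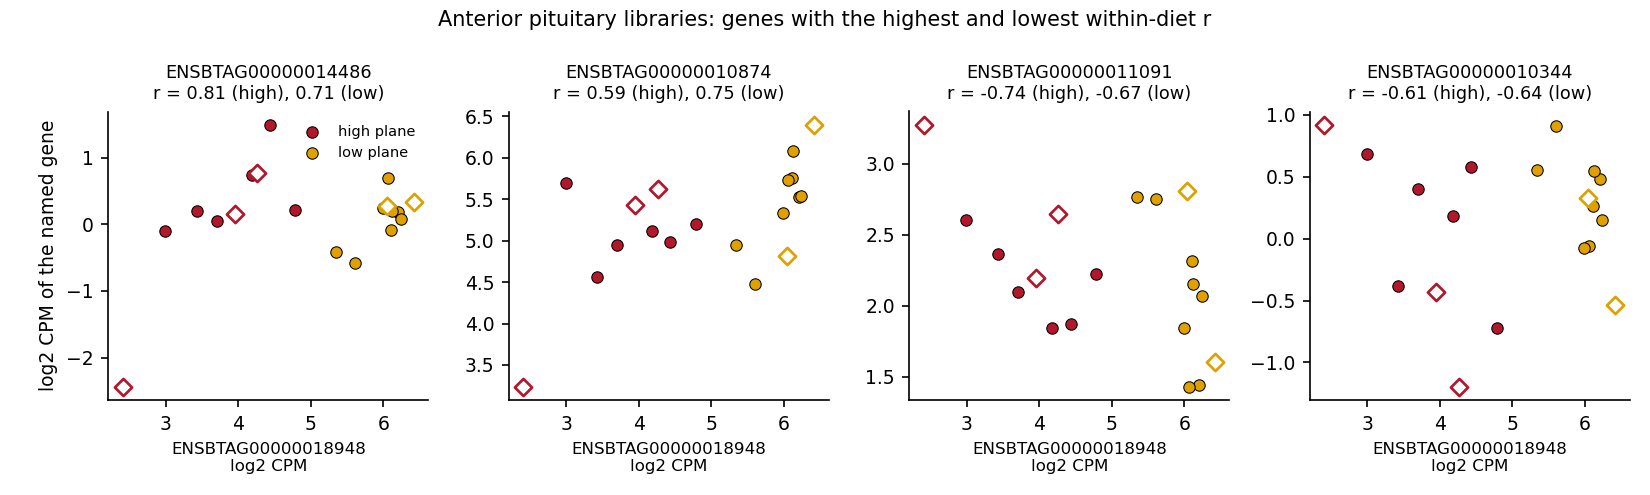
Log2 CPM of the 2 genes with the highest and the 2 with the lowest within-diet r in the anterior pituitary against the log2 CPM of ENSBTAG00000018948, for 9 high plane (red) and 10 low plane (yellow) libraries; open diamonds are libraries that lay apart on the first scaling dimension. The leftmost library is A51, which lies far from the rest in both genes that follow.

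The 50 genes that followed ENSBTAG00000018948 most closely in the anterior pituitary, with a weaker r of at least 0.37, were then looked up in the other tissues. For the 46 tested in the arcuate nucleus the median r was 0.01 on the high and -0.18 on the low plane, and 26.1% were positive in both, against 38.4% of all genes there. For the 47 tested in the testes the median r was 0.02 and -0.21, and 19.1% were positive in both diets, against 9.95% of all genes. In both comparisons, all genes means those with a mean of at least 1 CPM in the second tissue. The list had no such floor there, so the sets are not quite alike. None of the 50 (0 genes) was among the 50 closest genes of the arcuate nucleus or the testes. Those lists hold 50 of 14376 and 50 of 14490 genes, so unrelated lists would also be likely to share none. Nothing is read from this count. By diet, 0 of these 50 passed an FDR of 0.05 by edgeR in the anterior pituitary, where 0.562% of all genes passed. Of the 50, 35 had a log2 fold change above 0, beside 52.1% of all genes tested, and their median was 0.13, beside 0.02 over all genes tested.

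Membership of the 50 closest genes depended on the processing. Of them 42% remained among the 50 closest by Spearman's rho and 66% with library totals in place of TMM factors. After removal of the library score 28% remained, and 8% without the 5 libraries that lay apart. That last setting left 6 high and 8 low plane libraries, and fewer libraries reach an r of 0.7 more easily. Counts of genes at 0.7 without the 5 libraries are therefore not comparable with those over all libraries.

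The arcuate nucleus and testes gave their own lists. In the arcuate nucleus 0 of 14376 genes reached 0.7 in both diets, with 0.68 the highest weaker r, and 2 fell to -0.7 or below. Without the shallow library C22 these counts were 7 and 1. In the testes, with 10 and 8 libraries, 13 of 14490 genes reached 0.7 in both diets, the closest at 0.85, and 4 fell to -0.7 or below. An r of 0.7 is easier to reach in 8 libraries. The gene also correlated there with the log2 total count, at 0.56 and 0.63. The counts of the tissues are therefore not comparable.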

How the data were processed

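The authors deposited, for each of 57 single-end TruSeq mRNA libraries, the raw read count per Ensembl gene. The submitters' processing notes name CASAVA 1.4, STAR, HTSeq and edgeR, and the genome build and annotation are not given in the sources used here. Tests were run separately by tissue with edgeR 4.0.16 under R 4.3.3 (default expression filter on diet, TMM, quasi-likelihood test, low minus high plane, FDR threshold 0.05), and a second fit covered the arcuate nucleus and testes. The fits and the correlation ranking were also run on simulated counts, as a check of the code. Those counts had no libraries lying apart and no shared scaling dimension, unlike the data here. Permutation tests used Python 3.11.15 and scipy 1.17.1. CPM for correlation were log2 transformed with a prior count of 2. Counting error covers the sampling of reads only.

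The gene, the rule for named genes and the gene lists were chosen with earlier results of these data known. By rule, the 2 genes of highest and the 2 of lowest within-diet r in the anterior pituitary were named, among genes of mean CPM of at least 1. The pathway and cell type lists could not be applied, since no table paired identifiers with symbols. Alternatives were DESeq2 1.42.0, its size factors in edgeR, library totals, no filter, a minimum of CPM 1 required of all libraries, a covariate (log2 of the library's total, or a library score), and leaving out each library (95 fits). The library score is the mean log2 CPM of 200 genes with the largest slopes on the first scaling dimension in the other tissues. That dimension was computed over 500 genes and oriented so that most libraries were positive. Libraries below its widest gap were left out as an alternative chosen after seeing the data.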

Additional observations from a re-analysis of the deposited data

How the results depend on the processing

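The log2 fold change of ENSBTAG00000018948 in the anterior pituitary ran from 1.95 to 2.15 over 8 alternatives and from 1.98 (without A51) to 2.25 (without A11) when each library was left out. In the arcuate nucleus it ran from 0.77 to 0.88 (FDR 0.110 to 1.0) and from 0.68 to 0.89 (FDR 0.280 to 0.822), and the arcuate minus testes difference from 0.48 to 0.79 and from 0.65 to 0.93, all above an FDR of 0.05. In the testes the sign turned positive with library totals (0.0316), the total count (0.26) or library score (0.0262) as covariate and without the libraries that stood apart (0.34), and leaving out each library gave -0.20 (without B7) to 0.0545 (without B15). The testes against arcuate level on the high plane lost its call with library totals (-0.38), and leaving out each library gave -0.56 to -0.43. On the low plane it kept its call in all 8 alternatives (-1.37 to -1.08) and the 38 fits that left out a library. The cause of these changes was not tested.

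The weaker r of ENSBTAG00000010874 ran from -0.0478 (without A51) to 0.750 with each library left out. In the anterior pituitary the number of genes at 0.7 or more in both diets was 1. It was 0 by Spearman's rho, 0 with library totals and 3 after removal of the score. It was 8 without the libraries that stood apart, where 6 and 8 libraries make 0.7 easier to reach. At -0.7 or less it was 4 and 6 for the last pair. In the arcuate nucleus the counts were 17 and 6 with library totals, 6 and 7 after removal of the score, 7 and 1 without C22, and 4 and 6 without the libraries that stood apart. In the testes 56 genes followed after removal of the score, and 2, 9 and 24 ran opposite by Spearman's rho, with library totals and after that removal. Without the libraries that stood apart it was not run, with 3 low plane libraries left.

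The number of genes with an FDR below 0.05 was 81 in the anterior pituitary, and 258 by DESeq2, 50 with library totals, 1298 with the library score, 833 without the libraries that stood apart and from 48 (without A52) to 88 with each library left out. In the testes it was 1057, and 1972 by DESeq2, 2336 with library totals, 609 without a filter, 2 with the total count, 0 without the libraries that stood apart and from 158 (without B2) to 4600 (without B42) with each library left out. For the arcuate minus testes difference it was 0, and 211 by DESeq2, 723 with the score, 69 without the libraries that stood apart and up to 107 with 1 library (B31) omitted. The gene lists were not run, for want of symbols. No paired analysis was possible because the groups share no replicate number and the labels tie no library to a calf.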

Other observations

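ENSBTAG00000010344, named only for its opposite course in the anterior pituitary, was lower on the low plane in the testes. High plane testes libraries held 8.82 to 17.7 CPM and low plane libraries 2.99 to 7.07 CPM, with no overlap, and the means were 11.8 ± 2.75 CPM (SD, n = 10) and 5.40 ± 1.46 CPM (SD, n = 8). The log2 fold change was -1.12 (SE 0.19, FDR = 0.0169 by edgeR's quasi-likelihood test). In alternatives chosen after seeing the data, the call was lost with the log2 total count as covariate (-0.96, FDR = 0.172 by edgeR) and without the 6 testes libraries that lay apart (-1.03, FDR = 0.0928 by edgeR). Over all 8 alternatives the log2 fold change ran from -1.17 to -0.96 and the FDR from 7.48e-06 to 0.172. In that tissue 2.16% of the genes tested passed with lower counts on the low plane, and 0.118% did not overlap in that direction. Its r with ENSBTAG00000018948 in the testes was -0.16 on the high and 0.01 on the low plane.

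Among the 6 groups of libraries, 0 values of ENSBTAG00000018948 lay far enough from their group to pass the 95% limit of Dixon's gap test on log2 CPM.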
